A study of Mus musculus with 2 samples.

Results

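Rfx6 binding peaks were examined at CpG-poor promoters with protein-coding starts on a single strand in Min6B1 cells. A peak was a member when its summit, the position of highest signal, was at most 1 kb from protein-coding transcript starts on one strand only, and when the 500 bp centred on the summit had a GC content under 50.0% or an observed/expected CpG ratio under 0.6. This ratio is the number of CG dinucleotides multiplied by the length and divided by the product of the numbers of C and of G. By this rule 1641 of the 23308 peaks were members (7.04%). Another 2838 peaks lay at one-strand promoters that were CpG-rich, 423 lay at bidirectional promoters with starts on both strands, and 18406 lay over 1 kb from any protein-coding start. Positions are those of the mouse genome NCBIM37 (mm9), and genes and starts are those of GENCODE M1.

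Min6B1 is a mouse cell line derived from pancreatic β cells. The treated cells were transfected with 24 μg of a plasmid in which a CMV promoter drives Rfx6 carrying 3 copies of an HA tag (3HA-Rfx6), and after 2 days in 25 mM glucose chromatin was precipitated with the anti-HA antibody 12CA5 for sequencing (ChIP-seq). The control library came from a precipitation with that antibody in cells labelled only as Min6b1, whose growth text repeats the transfection, so its plasmid content is not settled by the labels. The peaks are thus those of a tagged, overexpressed protein in 1 cell line, with 1 library per condition and no replicate. The 3HA-Rfx6 library retained 33949757 of 49443917 reads after removal of duplicates and the control retained 3567375 of 16911298, and the part of this unequal depth in the fold enrichments was not tested. With 1 library there is no test between conditions. Values stand beside those of the other peaks, with 95% intervals (Wilson for shares, order statistics for medians). These intervals cover counting error over peaks only and not the variation between libraries.

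Rfx6 belongs to the RFX family of transcription factors, which share a winged-helix DNA-binding domain and bind the X-box, an imperfect palindrome of 2 half-sites. RFX factors are known for activating genes of the cilium, and Rfx6 for its role in the development and function of insulin-producing β cells. Most mammalian promoters lie in CpG islands and belong to broadly active genes, whereas CpG-poor promoters belong more often to genes restricted to a few tissues.

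X-boxes at the summits of the CpG-poor promoter peaks are shown first, because this is the sequence that RFX factors bind and it was more frequent at the summits of the members than 1 kb away from them. The strict X-box was searched as GTNACC or GTNGCC followed by 0 to 3 bases and by AGCAAC or AGTAAC or GGCAAC or GGTAAC, on both strands. The first group holds the X-box of the peak with the highest fold enrichment, at Josd2, and those of members with the most reads among peaks with a strict X-box within 25 bp of the summit. Camk2a belongs to this group by its 337 reads and is given without its sequence. Every strict X-box in the printed stretch is in capitals, and each sequence reads 5′ to 3′ on the strand given. Stretches that touch an annotated exon were kept to 30 bases.
Josd2, chr7:51723714-51723743, minus strand: tctcttctgGTCGCCTAGCAACgaaagact
Gzmk, chr13:114016150-114016349, minus strand: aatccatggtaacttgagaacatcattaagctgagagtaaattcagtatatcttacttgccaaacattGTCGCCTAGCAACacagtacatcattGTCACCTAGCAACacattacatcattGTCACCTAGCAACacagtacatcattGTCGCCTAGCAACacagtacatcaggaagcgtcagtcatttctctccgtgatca
Syt5, chr7:4498251-4498350, minus strand: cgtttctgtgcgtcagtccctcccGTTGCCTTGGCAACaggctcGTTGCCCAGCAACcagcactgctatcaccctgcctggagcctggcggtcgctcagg
Fam92b, chr8:122701367-122701396, plus strand: gctgcctgGTTGCCAGGCAACgggccatcc
Fxyd7, chr7:31836061-31836160, plus strand: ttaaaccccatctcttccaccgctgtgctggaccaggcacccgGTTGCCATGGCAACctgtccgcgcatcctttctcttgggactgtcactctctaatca
Tiam1, chr16:89858095-89858124, minus strand: cagcttttgGTTGCCAAGCAACcaagtaat
4931429P17Rik, chr13:48113180-48113209, plus strand: cccttagtGTTACCTGGCAACgggcgcacc
Tmem109, chr19:10955912-10956011, plus strand: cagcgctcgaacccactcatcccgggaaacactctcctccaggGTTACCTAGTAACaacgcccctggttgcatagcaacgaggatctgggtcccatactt
Wdr52, chr16:44394877-44394906, minus strand: ttactgcgGTTGCCATAGCAACgtccctcc
Gpsm1, chr2:26176017-26176116, plus strand: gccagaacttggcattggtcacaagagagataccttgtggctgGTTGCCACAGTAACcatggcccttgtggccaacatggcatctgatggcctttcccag

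A second group holds the strict X-boxes at the members of the cilium gene list, Dync2li1 and Tmem67.
Dync2li1, chr17:85025785-85025814, plus strand: gtgacgtcGTTGCCATGGCAACcgaggagc
Tmem67, chr4:12015174-12015273, minus strand: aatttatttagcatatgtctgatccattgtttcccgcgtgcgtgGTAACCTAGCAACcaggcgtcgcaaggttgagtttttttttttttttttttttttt

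The last group had no strict X-box and matched only a relaxed pattern (a purine, 2 pyrimidines, any base, 2 pyrimidines, then 1 to 3 bases, then 2 purines, any base, a purine and AC), which is in capitals. It is shown because 4 of these peaks were among the 10 members with the highest fold enrichment, and because Pcsk1n and Gipr are genes of insulin-secreting cells. Not every such member is printed: Stx2, also among those 10, and Stx1a, also of insulin secretion, had only the relaxed pattern too.
Hspbp1, chr7:4636360-4636459, plus strand: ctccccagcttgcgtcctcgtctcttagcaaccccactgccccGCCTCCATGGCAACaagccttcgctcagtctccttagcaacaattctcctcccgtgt
Fam183b, chr11:58615474-58615573, plus strand: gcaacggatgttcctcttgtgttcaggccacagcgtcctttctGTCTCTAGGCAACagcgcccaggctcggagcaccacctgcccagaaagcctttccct
Klf13, chr7:71070264-71070363, plus strand: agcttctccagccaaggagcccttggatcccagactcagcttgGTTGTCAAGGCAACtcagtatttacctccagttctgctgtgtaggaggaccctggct
Pnmal1, chr7:17544977-17545076, plus strand: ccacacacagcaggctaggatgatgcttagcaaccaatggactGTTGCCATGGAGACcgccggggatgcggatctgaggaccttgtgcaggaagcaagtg
Pcsk1n, chrX:7496739-7496838, plus strand: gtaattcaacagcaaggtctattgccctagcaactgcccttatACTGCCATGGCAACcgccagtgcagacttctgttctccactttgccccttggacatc
Gipr, chr7:19750569-19750668, minus strand: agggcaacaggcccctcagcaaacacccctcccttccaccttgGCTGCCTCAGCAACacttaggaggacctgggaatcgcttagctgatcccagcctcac

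The Gzmk stretch held 4 strict X-boxes in a tandem array, and the Syt5 stretch held 2 strict X-boxes separated by 6 bases. At Dync2li1, Fxyd7 and Fam92b, and in the first printed X-box of Syt5, both arms were the half-site GTTGCC and its reverse complement GGCAAC. In the printed stretches of the last group, half-sites stood alone or beside a degenerate partner. The Hspbp1 stretch held 3 copies of GTTGCC or GTTGCT counted on both strands, and those of Pnmal1, Pcsk1n and Gipr held 2 each. The unprinted stretches of Stx2 and Stx1a held no copy, so the printed ones do not stand for all relaxed matches.

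The rule set the base composition of the members, which is given here as a description. Of the 1641 members, 1329 met the CpG ratio limit alone, 30 met the GC limit alone and 282 met both. Their GC fraction had a median of 0.554 and their CpG ratio a median of 0.370, against 0.662 and 0.805 at the CpG-rich one-strand promoter peaks. The members were 36.6% of the 4479 one-strand promoter peaks. The division did not fall in a gap of the distribution: with a GC content of at least 50.0%, 223 members had a ratio between 0.55 and 0.6, with a median of 87 reads and a fold of 8.71, and 284 peaks just outside had a ratio between 0.6 and 0.65, with a median of 86.5 reads and a fold of 9.3. In the other dimension of the rule, 118 members lay 900 to 1000 bp from the start, and 96 CpG-poor one-strand peaks lay in the next 100 bp outside the limit.

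**Figure D1:**
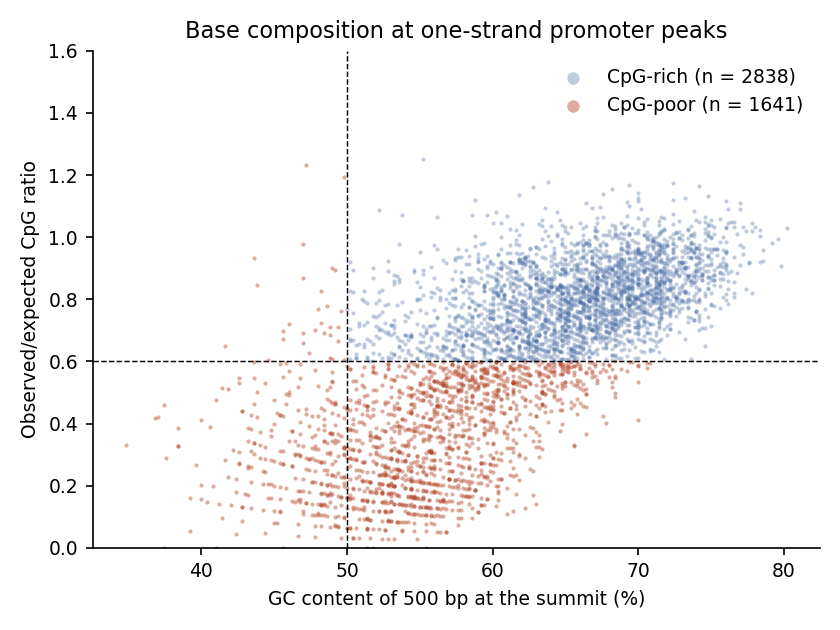
GC content (x axis, %) against the observed/expected CpG ratio (y axis) of the 500 bp at each summit, one point per one-strand promoter peak, with the limits of the rule as dashed lines. The 1641 CpG-poor and 2838 CpG-rich peaks meet along the limits with no gap between them.

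The name CpG-poor promoter holds for the DNA under the summit and not always for the start beside it. When the same composition was measured in the 500 bp around the nearest start, 1024 members (62.4%) lay beside a start that was CpG-poor too, and 617 (37.6%) lay beside a CpG-rich start. The summits beside CpG-rich starts were farther away, at a median of 548 bp against 275 bp. Median reads were 78 (75 to 83) at CpG-poor starts and 85 (79 to 93) at CpG-rich starts, and median fold enrichments were 8.85 (8.47 to 9.36) and 8.94 (8.24 to 9.42), so the intervals overlapped in both measures. The X-box share was 8.30% (6.76 to 10.2%) at CpG-poor starts and 5.02% (3.56 to 7.04%) at CpG-rich starts.

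CpG-poor promoters held an Rfx6 summit less often than CpG-rich ones. With 1 start per gene, the most upstream one, and the composition taken at the start, 891 of 11172 CpG-poor one-strand promoters had a summit within 1 kb, which is 7.98% (7.49 to 8.49%). Among 8724 CpG-rich one-strand promoters 32.2% had one (31.2 to 33.2%), and among all 22365 promoters 20.2% had one. The difference between CpG-poor and CpG-rich promoters was -24.2 percentage points (-25.3 to -23.1). The share rose with the CpG ratio inside the CpG-poor range, from 1.88% at ratios under 0.1 to 22.5% at 0.5 to 0.6, and reached 34.0% at 0.8 to 0.9. How far open chromatin and mappability differ between these promoters was not measured in the deposited list.

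**Figure D2:**
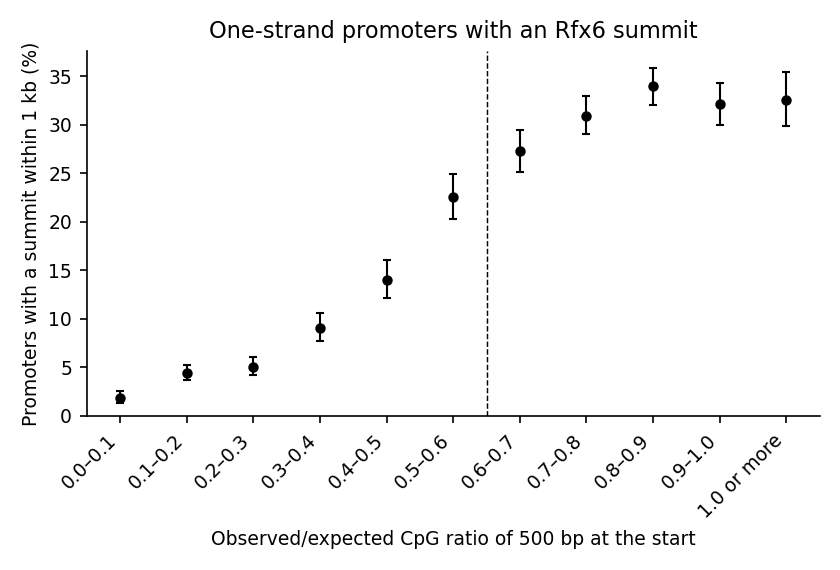
Share of one-strand promoters with an Rfx6 summit within 1 kb (y axis, %) by the observed/expected CpG ratio of the 500 bp at the start (x axis), with 95% Wilson intervals as bars and the limit of 0.6 as a dashed line. The share is 1.88% in the lowest class, 22.5% just below the limit and 34.0% at ratios of 0.8 to 0.9.

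A CpG-poor promoter with an X-box held a summit more often than one without. A strict X-box lay in the 200 bp around the start at 102 of the 11172 CpG-poor promoters (0.913%), and 35 of these 102 had a summit within 1 kb, which is 34.3% (25.8 to 43.9%). Without that X-box the share was 7.73% (7.25 to 8.24%). At CpG-rich promoters the same shares were 65.2% (54.8 to 74.3%) and 31.8% (30.9 to 32.8%). The interval for CpG-poor promoters with an X-box thus covered the level of CpG-rich promoters without one. With the X-box searched in 2000 bp around the start, 347 CpG-poor promoters had one and 27.1% of them had a summit (22.7 to 32.0%), against 7.36% of the others.

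The members and the peaks of the other promoter classes had close median reads and fold enrichments. The members held between 26 and 972 reads with a median of 81 (78 to 85), against 82 (80 to 84) at CpG-rich one-strand promoters, 81 (74 to 88) at bidirectional promoters and 73 (72 to 73) over all peaks. Fold enrichments over the control ranged from 2.99 to 95.8 with a median of 8.94 (8.47 to 9.18), against 8.98 (8.71 to 9.21) at CpG-rich and 8.71 (8.24 to 9.42) at bidirectional promoters and 8.54 (8.47 to 8.71) over all peaks. The intervals of the members and of the other promoter classes overlapped in both measures. The peaks over 1 kb from a start had a lower median of 70 reads (70 to 71). Of the 100 peaks with the highest fold 7 were members, and of the 1000 highest 83 were (8.30%, 6.75 to 10.2%), beside the 7.04% that members made up of all peaks. The median false discovery rate of the peak caller was 3.31% for members and 3.06% for all peaks. This rate did not order the peaks by strength: the Josd2 peak, with the highest fold, had the highest rate, 25.3%.

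The peak at Josd2, which encodes a Josephin-domain deubiquitinase, had the most reads among members (972) and the highest fold enrichment of all 23308 peaks (95.8). Its summit lay 318 bp downstream of the start in an untranslated exon, and the X-box shown above lay 32 bp from it. Tesc, which encodes the calcium-binding protein tescalcin, followed with 797 reads and a fold of 38.6, at a summit 467 bp upstream of the start. Ptp4a3, which encodes a protein tyrosine phosphatase, had 613 reads and a fold of 39.3 at an alternative start. Further members among the 10 with the most reads were Pfkfb3, a regulator of glycolysis (502 reads), Pcid2 (500 reads), Nfatc2, a transcription factor controlled by calcineurin (494 reads), Stx2, a SNARE protein of membrane fusion (476 reads), the orphan receptor gene Gpr25 (473 reads) and Mcf2l, a guanine nucleotide exchange factor (468 reads). Of these named members only Josd2 had a strict X-box within 100 bp of the summit, so high read numbers also occurred without this sequence. The Nfatc2 peak was the one member with a false discovery rate of at most 1%.

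Ordered by fold enrichment, Josd2 was followed by Hspbp1, which encodes a co-chaperone of Hsp70, with 460 reads and a fold of 78.6. Fam183b had a fold of 70.2 (389 reads). Gzmk, which encodes granzyme K, a protease of cytotoxic lymphocytes, had a fold of 70.1 (394 reads), and its summit lay 126 bp upstream of the start within the tandem X-boxes. Rcan1, an inhibitor of calcineurin, had a fold of 62.4, and the transcription factor gene Klf13 also had 62.4. Syt5, which encodes a synaptotagmin of secretory vesicles, had a fold of 53.0, and Stx2 had 47.6. Pnmal1 had a fold of 47.1, and Pde4a, which encodes a phosphodiesterase of cyclic AMP, had 45.4. Of these 10 members 3 had a strict X-box (Josd2, Gzmk and Syt5), and Rcan1 and Pde4a had neither the strict nor the relaxed pattern.

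Summits at CpG-poor promoters were spread more widely around the start than those at CpG-rich promoters, and lay more often upstream. Upstream of the nearest start lay 730 summits, 44.5% of the members (42.1 to 46.9%), against 29.4% (27.8 to 31.1%) at CpG-rich one-strand promoters, a difference of 15.1 percentage points (12.1 to 18.0). Within 250 bp of the start lay 574 of the 1641 members (95% interval 32.7 to 37.3%) and 54.3% of the CpG-rich peaks (52.4 to 56.1%). Over 500 bp away lay 40.6% (38.3 to 43.0%) and 16.6% (15.3 to 18.0%). The median distance was 389 bp for members and 223.5 bp for CpG-rich peaks. Part of this difference follows from the rule, since composition was taken at the summit and a summit farther from a CpG-rich start is more often CpG-poor. Among the members beside a start that was itself CpG-poor, 46.4% (43.4 to 49.4%) lay upstream and the median distance was 275 bp. The members were most dense in the 100 bp before the start, with 176 summits, and in the 100 bp after it, with 144, and no other bin of 100 bp held more than 101.

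**Figure D3:**
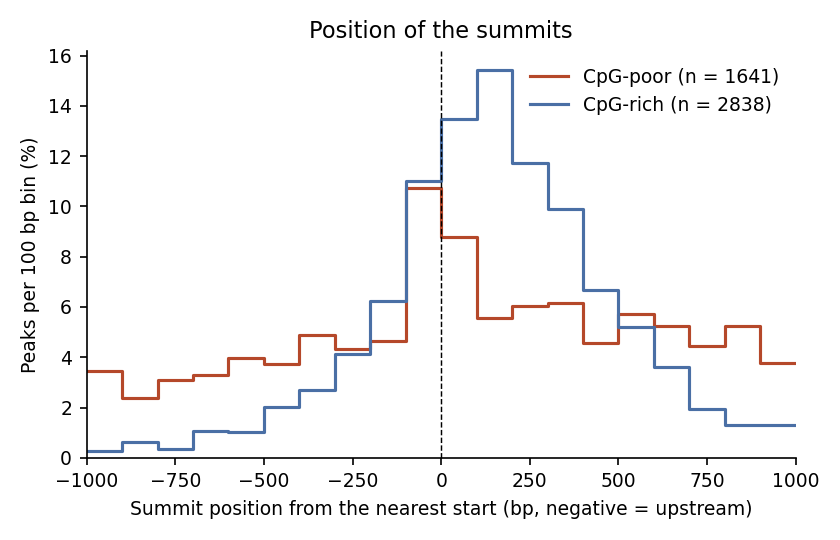
Position of the summit from the nearest protein-coding start (x axis, bp, negative is upstream) as the percent of peaks in bins of 100 bp (y axis) for CpG-poor (n = 1641) and CpG-rich (n = 2838) one-strand promoter peaks. CpG-poor summits peak in the 100 bp before the start at 10.7% and spread over both sides, whereas CpG-rich summits peak 100 to 200 bp after it at 15.4%.

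In the annotation, 770 member summits lay in introns (46.9%), 465 outside transcripts (28.3%), 221 in untranslated exons (13.5%) and 185 in coding exons (11.3%). The peak interval covered the nearest start in 1253 members (76.4%). Median fold enrichments were 8.5 (8 to 9.18) in introns, 8.71 (8.24 to 9.42) outside transcripts, 9.42 (8.71 to 10.8) in untranslated exons and 8.94 (8.22 to 9.65) in coding exons, with overlapping intervals. Alternative annotated starts were frequent among the members. In 419 members (25.5%, 23.5 to 27.7%) the nearest start lay over 1 kb inside the most upstream start of the gene. The share was 8.21% (7.26 to 9.28%) at the CpG-rich peaks. Whether these starts are used in Min6B1 cells was not measured. The most upstream start of the gene was CpG-rich in 234 of the 419 members (55.8%) and lay a median of 13.1 kb away. Members at alternative starts had a median fold of 8.23 (7.63 to 9.13) and those at the most upstream start 8.94 (8.64 to 9.42). The nearest starts belonged to 1571 genes, of which 71 had at least 2 members and none had more than 3. Amz1, which encodes a metalloprotease, had 3, with folds of 6.06, 16.0 and 6.59 at 3 different starts. Genes nearest to a member had a mean of 2.87 distinct protein-coding starts and the other genes 2.00. A gene with more starts has more places where a member can lie. Another summit lay within 10 kb of 45.9% of the members (43.5 to 48.3%), of 35.4% of the CpG-rich peaks (33.7 to 37.2%) and of 46.6% of all peaks.

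The strict X-box was found within the 200 bp at the summit of 116 members, 7.07% (5.93 to 8.41%). Among 3282 flanking windows, placed 1 kb away on either side, 8 held one, 0.244% (0.124 to 0.480%). The share was 4.90% (4.16 to 5.75%) at CpG-rich promoter peaks, 6.38% at bidirectional promoter peaks, 6.60% at peaks over 1 kb from a start and 6.42% over all peaks. The members were above the CpG-rich peaks by 2.17 percentage points (0.743 to 3.70), and their interval covered the share of all peaks. Of the 116 X-boxes, 72 had their centre within 25 bp of the summit and 98 within 50 bp, with a median of 17.8 bp. The relaxed X-box was found in 46.9% of the members (44.5 to 49.3%) and in 21.1% of their flanks, and in 35.1% of the CpG-rich peaks, 47.5% of the peaks over 1 kb from a start and 45.9% of all peaks.

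**Figure D4:**
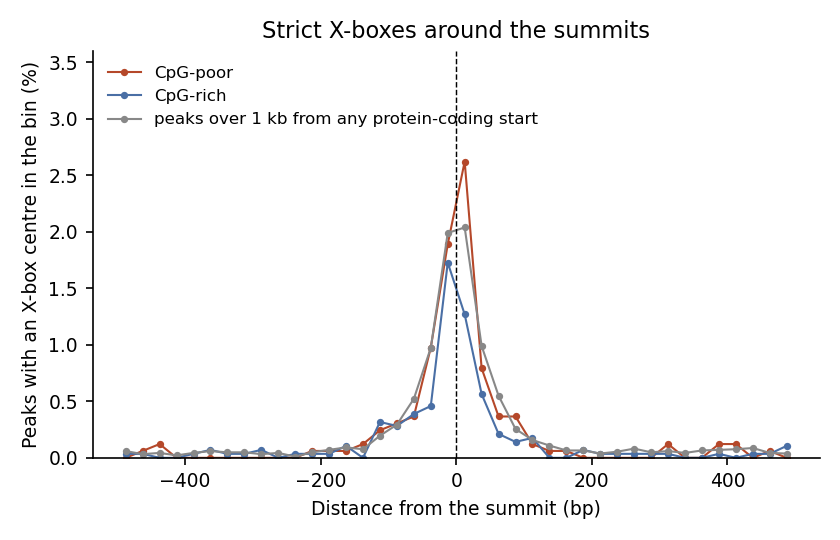
Percent of peaks with the centre of a strict X-box in each 25 bp bin (y axis) against the distance of the bin from the summit in bp (x axis) for CpG-poor and CpG-rich one-strand promoter peaks and for peaks over 1 kb from a start. X-boxes of the CpG-poor peaks gather at the summit, with 2.62% and 1.89% of the peaks in the bins on either side of it.

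The order of the members and the CpG-rich peaks in X-box share moved with GC content. Among peaks with a GC content of 50 to 55%, 7.80% of 449 members (5.66 to 10.6%) and 20.5% of 117 CpG-rich peaks (14.2 to 28.7%) had an X-box, which is the opposite order. At 55 to 60% the shares were 5.67% (interval up to 7.98%) and 6.78% (4.43 to 10.2%), and at 60 to 65% they were 6.82% (4.36 to 10.5%) and 5.68% (4.21 to 7.61%). The intervals overlapped in both of these classes, so the higher share of the members over all peaks did not hold at each GC content. At equal distance from the start the members were above in each of 4 classes, with 13.4% (10.1 to 17.6%) against 8.17% (6.36 to 10.4%) within 100 bp and 9.06% (6.11 to 13.2%) against 4.51% (3.31 to 6.13%) at 100 to 250 bp. At 250 to 500 bp the shares were 4.75% (3.06 to 7.30%) and 3.87% (2.75 to 5.41%), and at 500 to 1000 bp they were 4.65% (3.29 to 6.52%) and 2.55% (1.46 to 4.40%), and the intervals of the members and the CpG-rich peaks overlapped in all 4 classes. Within the members, X-boxes were thus most frequent near the start, and more frequent at summits upstream of it (9.04%, 7.17 to 11.3%) than downstream (5.49%, 4.19 to 7.16%). Of the 116 X-boxes, 45 lay within 100 bp of the start and 70 lay upstream of it (60.3%, 51.2 to 68.8%).

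The X-boxes of the members had few forms. The left arm was GTTGCC in 55 of 116 and GTTACC in 14, and the right arm was AGCAAC in 50 and GGCAAC in 50. The half-sites were separated by 1 base in 51 X-boxes and by 2 bases in 55, by 3 bases in 9 and by 0 in 1. In 32 cases the X-box matched the strict pattern on both strands. More than 1 strict X-box in the 200 bp was rare, in 6 members: Gzmk had 4, and Camk2a, Syt5, Fam92b, Med25 and Gnb2 had 2 each. Med25 and Gnb2 are named here because of this count, after their values were seen. The fold enrichments of these 6 peaks ran from 15.7 at Gnb2 and 36.0 at Camk2a to 37.7 at Med25, 39.1 at Fam92b, 53.0 at Syt5 and 70.1 at Gzmk, all above the median of the 110 members with a single X-box, 11.5.

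Fold enrichment was higher at members with an X-box. Members with a strict X-box had a median fold of 11.6 (10.3 to 13.4, n = 116) and those without 8.57 (8.24 to 8.94, n = 1525). At CpG-rich promoters the medians were 13.2 (11.1 to 15.0) and 8.94 (8.47 to 9.18). Read numbers differed less, with medians of 90.5 (75 to 108) and 80 (77 to 85) among the members and overlapping intervals. By fold, the lowest 10% of the members had an X-box in 1.22% of cases (0.335 to 4.34%) and the highest 10% in 15.2% (10.5 to 21.5%). By reads these shares were 6.10% (3.35 to 10.9%) and 9.15% (5.62 to 14.5%). Half-sites were counted in the same way. GTTGCC or GTTGCT, on either strand, occurred at 49.8% of the member summits (47.4 to 52.2%) and in 14.9% of the flanks, at 35.2% of the CpG-rich summits and at 53.2% (52.5 to 53.9%) of the summits over 1 kb from a start. At least 2 copies occurred at 13.2% of the member summits (11.7 to 14.9%), in 1.34% of the flanks and at 16.3% (15.8 to 16.9%) of the summits over 1 kb from a start. The median fold was 8.10 (7.77 to 8.47) with no copy, 11.3 (9.65 to 12.2) with at least 2 and 15.0 (11.8 to 21.1) with at least 3. Still, 824 members (50.2%) had no half-site in the 200 bp.

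**Figure D5:**
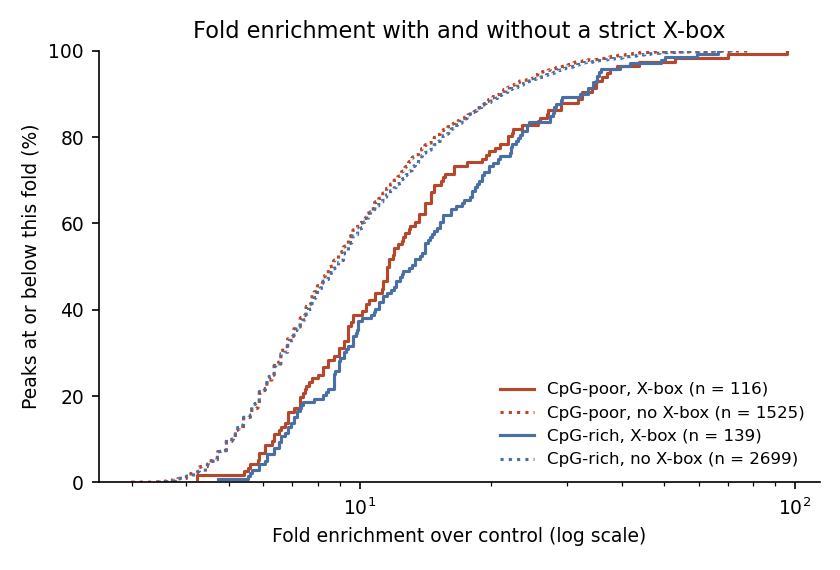
Cumulative percent of peaks (y axis) at or below each fold enrichment over the control (x axis, log scale) for CpG-poor and CpG-rich one-strand promoter peaks with and without a strict X-box at the summit. In both classes the curve with an X-box lies to the right, with medians of 11.6 against 8.57 at CpG-poor and 13.2 against 8.94 at CpG-rich promoters.

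Among all words of 6 letters, counted on both strands, GGCAAC showed the largest difference between member summits and flanks, 26.9% against 6.06%. It was followed by AGCAAC, with 29.6% against 9.35%, and by GCAACC, with 26.0% against 7.22%, and both are parts of X-box half-sites and their next base. The next words, CCTGGC (38.2% against 22.0%) and CCAGGC (39.7% against 23.6%), are not parts of a half-site and its next base. Both can lie across the bases between the half-sites, as CCTGGC does in the X-box printed for 4931429P17Rik and CCAGGC in that of Fam92b. How many of their copies lie inside an X-box was not counted. At peaks over 1 kb from a start the same words led, with AGCAAC first (33.1% against 9.99%) and GGCAAC next (27.7% against 6.53%), so this order is not particular to the members. At CpG-rich promoters GGCAAC was number 151 by this difference, although it was also more frequent at the summits (20.5%) than in the flanks (6.55%). Sites of other factors were counted in the same windows, on both strands. The MAF core TGCTGA was more frequent at the member summits than in the flanks, with 17.8% (16.0 to 19.7%) against 13.5%. The homeobox core TAATTA was less frequent at the summits, with 1.04% against 3.47%, as was the HNF1 half-site GTTAAT, with 2.38% against 4.81%, the CCAAT box, with 16.8% against 21.8%, and the TATA box TATAAA, with 2.80% against 8.74%. The forkhead word TGTTTAC occurred in 1.95% of the summits and 2.25% of the flanks, the GATA word AGATAAG in 1.58% and 2.1%, the AP-1 site TGANTCA in 4.81% and 5.15%, and the cyclic AMP response element TGACGTCA in 0.488% and 0.274%. The short E-box CANNTG occurred in 66.1% and 62.7%. The GC box GGGCGG occurred in 13.7% of the members (12.1 to 15.5%) and in 45.3% of the CpG-rich peaks (43.5 to 47.1%), a difference that the composition rule favours. At CpG-poor peaks over 1 kb from a start, TGCTGA was also more frequent at the summits than in the flanks (21.2% against 15.2%). There TAATTA (2.45% against 4.40%), GTTAAT (3.71% against 5.25%), CCAAT (18.0% against 22.8%) and TATAAA (4.68% against 11.4%) were also less frequent. These differences are thus not particular to the members, and summits and flanks were not matched for base composition.

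Of all 22365 protein-coding genes, 7.02% had a member at one of their starts, and the gene lists are given beside this share. The lists were chosen with earlier results known and their counts were not tested. Among 22 transcription factors of β cells and islets, 5 had a member (22.7%, 10.1 to 43.4%). Neurog3, the factor that starts the endocrine lineage, had the most reads, 208, with a fold of 7.81 and a summit 37 bp downstream of the start. Pax6, a factor needed for islet hormone genes, had 143 reads and a fold of 25.0 at an alternative start, 160 bp downstream of it. St18, a zinc finger factor, had 46 reads and a fold of 8.71. Rfx6 itself had 42 reads and a fold of 5.84, with the summit 3 bp from an alternative start in an untranslated exon. The plasmid carried Rfx6 sequence, and whether it holds this untranslated exon is not given in the sources used here. Pdx1, a central β cell factor, had 36 reads and a fold of 4.24, with a summit 998 bp downstream, near the 1000 bp limit of the rule. None of these 5 had a strict X-box, and all but Pax6 had a fold below the member median of 8.94.

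Among 38 genes of insulin secretion and secretory granules, 6 had a member (15.8%, 7.44 to 30.4%). They encode receptors, proteins of exocytosis and a processing factor. Glp1r, the receptor of the incretin GLP-1, had 130 reads and a fold of 10.4 at a summit 46 bp downstream of the start in a coding exon. Ffar1, the fatty acid receptor of β cells, had 123 reads and a fold of 11.0, also in a coding exon, 317 bp downstream. Stx1a, a SNARE protein of the plasma membrane, had 120 reads and a fold of 16.7, the highest of the 6, in an intron 645 bp downstream. Rph3al, an effector of Rab proteins in exocytosis, had 119 reads and a fold of 11.5 at an alternative start. Pcsk1n, which encodes an inhibitor of prohormone convertase 1/3, had 44 reads and a fold of 8.71, and Gipr, the receptor of the incretin GIP, had 37 reads and a fold of 6.36 in an intron 861 bp downstream. Of the 8 islet hormone genes none had a member (upper limit 32.4%). Disallowed genes are kept low in β cells, and the list held only the 11 found in both earlier studies of such genes. Of these 11, Smad3, a transducer of TGF-β signals, had a member (9.09%, 1.62 to 37.7%). This peak had 211 reads and a fold of 22.1, with its summit 350 bp downstream of an alternative start.

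Among 27 genes of the cilium and of intraflagellar transport, 4 had a member (14.8%, 5.92 to 32.5%). The most upstream start was CpG-poor in 4 of the 27 genes, and 3 of these starts had a summit. Of all CpG-poor one-strand promoters 7.98% had one, and 4 starts are too few to read as a share. At a CpG-rich or bidirectional promoter 14 genes had a peak, and the share of all genes for this count was not computed. Taking only most upstream starts, 32.2% of all CpG-rich one-strand promoters and 33.3% of all bidirectional ones had a summit. Dync2li1, a chain of the dynein motor of intraflagellar transport, had 107 reads and a fold of 21.9, with its X-box 1.5 bp from a summit 38 bp upstream of the start. Tmem67, a protein of the ciliary transition zone, had 58 reads and a fold of 8.71 with an X-box 11 bp from the summit. Ift27, a small GTPase of intraflagellar transport, had 79 reads and a fold of 8.47, and Foxj1, a transcription factor of motile cilia, had 76 reads and a fold of 6.74, both without a strict X-box. Outside this list, Wdr52, which encodes a protein of the ciliary axoneme, had 219 reads and a fold of 32.5 with its X-box 1.5 bp from the summit, 19 bp upstream of the start. Of the RFX family of 10 genes, Rfx6 was the one with a member.

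The remaining members named for their reads and an X-box near the summit have various roles. Camk2a, a calcium- and calmodulin-dependent kinase, had 337 reads and a fold of 36.0. Fam92b had 280 reads and a fold of 39.1 with its summit 29 bp upstream of the start. Fxyd7, a regulator of the sodium pump, had 262 reads and a fold of 21.0. Tiam1, an exchange factor for Rac, had 262 reads and a fold of 22.5 at an alternative start, 55 bp upstream of it. Gpsm1, a modulator of G-protein signalling, had 205 reads and a fold of 29.0, also at an alternative start. 4931429P17Rik had 244 reads and a fold of 37.0, and Tmem109 had 229 reads and a fold of 31.8.

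Lists of genes of other tissues stood on either side of the 7.02% of all genes, and only the intervals of the olfactory and vomeronasal receptors lay wholly below it. Of 1113 olfactory receptor genes 6 had one, 0.539% (0.247 to 1.17%), with Olfr222 at 108 reads, Olfr71 at 67 and Olfr90 at 62, and of 327 vomeronasal receptor genes none had one (upper limit 1.16%). Of 15 acinar markers of the exocrine pancreas none had one (upper limit 20.4%). One gene each had a member among 10 duct markers (Slc4a4, 51 reads, fold 4), 17 hepatocyte markers (Trf, which encodes transferrin, with 57 and 45 reads at 2 starts) and 13 leukocyte markers (Itgam, 122 reads, fold 4.49). Of 98 cytochrome P450 genes 2 had one, Cyp2s1 with 178 reads and Cyp4f17 with 156. Keratin genes had 5 of 51 (9.80%, 4.26 to 21.0%), led by Krt73 with 195 reads, Krt9 with 150 and Krt71 with 79. Genes with the symbol prefix of solute carriers had 36 of 354 (10.2%, 7.44 to 13.8%). The most reads there were 402 at Slc9a3r1, a scaffold protein in spite of its symbol, 334 at Slc25a10, the mitochondrial dicarboxylate carrier, and 249 at Slc2a8, a glucose transporter.

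Across the chromosomes with a member, their number ranged from 1.61 per 100 protein-coding genes on X, with 15 members, to 11.3 on chromosome 15, with 90. Peaks of every kind were few on X, with 174 in all, and the members were 8.62% of them. Without chromosome 7, which held 155 members, the median fold was 8.94 and the X-box share 7.00%.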

How the data were processed

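Rfx6 binding was measured by ChIP-seq with 1 library of 3HA-Rfx6 transfected Min6B1 cells and 1 control library. Per the labels, reads were handled with CASAVA version 1.8.2, Bowtie and MACS version 1.4.2 on mm9. The authors called peaks against the control with a p-value cutoff of 1e-05, a band width of 300 bp and at most 1 read per position. The deposited list gives for each peak the count of ChIP reads without normalization, the fold enrichment as a ratio to the larger of control and local background, a score (the p-value as log10, multiplied by minus 10) and a false discovery rate in percent obtained by exchanging ChIP and control. The control entered only through this calling and was not analysed here by itself.

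From the deposited list, each summit (start plus offset minus 1) was compared with the starts of transcripts of protein-coding type, and base composition and motifs were read from the NCBIM37 genome. A motif window of 200 bp was centred on the summit, and flanks on the positions 1 kb to either side. The nearest start gave the gene. No test was made, since regions of 1 library are not replicates. The genes named are those at the 10 members with the most reads, the 10 with the highest fold, the 10 with the most reads among those with a strict X-box within 25 bp of the summit, and the listed genes with a member (the 3 with the most reads for lists by symbol prefix). The symbols Amy2b, Spi1 and Ift43 were not matched. The members and lists were chosen with earlier results of these data known. The rule and the motif search were tested on simulated data. The computing was done in Python 3.11.15 (scipy 1.17.1, numpy 2.4.6, matplotlib 3.10.9, pandas 2.3.3). The alternatives were stricter peak sets, other distances, composition rules and starts, and other X-box patterns and windows. Some loci with a member, which the rule for named genes would include, are not reported here.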

Additional observations from a re-analysis of the deposited data

How the results depend on the processing

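Stricter peak sets changed the number and strength of the members by construction. The 50% of peaks with the highest scores left 925 members, with a median of 123 reads, a fold of 12.7, 41.8% upstream and 4.70% of CpG-poor promoters with a summit. A fold of at least 10 left 681 members, with 141 reads, a fold of 15.0, an X-box share of 10.4% and 3.49% of promoters. A false discovery rate of at most 1% left 1 member and 0% of promoters, too few for a median or a share. With 500 bp from a start there were 999 members, 47.4% upstream, 8.61% with an X-box and 5.33% of promoters, and with 2 kb 10.7% of promoters. Requiring both low GC and a low CpG ratio left 282 members, with 71 reads, 56.4% upstream and 2.38% of promoters. Members whose start was CpG-poor too, an alternative chosen after seeing the data, numbered 1024. The relaxed X-box raised the share to 46.9%, and a 100 bp window lowered it to 5.61%. The members stayed above the CpG-rich peaks in the share upstream and in the X-box share, and CpG-poor promoters stayed below CpG-rich ones, in every alternative with at least 20 members, although with both low GC and a low CpG ratio the interval of the X-box difference covered 0 (2.63 points, -0.131 to 6.47). The X-box order reversed at a GC content of 50 to 55%. At 55 to 60% the members were also lower (5.67% against 6.78%), with overlapping intervals. At 60 to 65% and at 65 to 80% they were higher, again with overlapping intervals. No paired analysis was possible because each condition had 1 library.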
